A study of Homo sapiens with 6 samples.

Results

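The MiT/TFE family comprises 4 related transcription factor genes, MITF, TFEB, TFEC and TFE3, and their H3K27ac landscape was examined in SU-CCS-1. This established cell line comes from human clear cell sarcoma, a soft tissue tumour, and its genotype is given as EWSR1::ATF1. H3K27ac is acetylation of lysine 27 on histone H3, a mark of active promoters and enhancers. A peak was counted for the family when it overlapped a GENCODE gene body of a member extended by 100 kb on each side, which gave 26 of the 30784 peaks in the list. The MITF window held 13 peaks, TFEB 5, TFEC 1 and TFE3 7. The series holds 3 H3K27ac chromatin immunoprecipitation sequencing (ChIP-seq) samples and 3 input samples, all from this one line, and the deposited data are 1 merged peak list without heights, read counts or values per sample. Every group therefore carries the fusion, and no cells without it were available for comparison. Without values per replicate no difference could be tested, and the widths and counts below describe a single list. Where no peak was listed, the signal fell short of the calling cutoff or the peak was filtered out, and the locus cannot be called free of acetylation.

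The 4 proteins are basic helix-loop-helix leucine zipper factors that bind DNA as dimers, with one another among other partners, at E-boxes with the letters CACGTG and at the related M-box, whose core is TCATGTG. MITF is the lineage factor of melanocytes, and clear cell sarcoma shares melanocytic features with melanoma. Its gene has several alternative first exons. The A form starts at the upstream end of the gene and is made in many tissues, whereas the M form starts at an internal promoter used mainly in melanocytic cells. TFEB and TFE3 drive lysosome and autophagy genes and are held in the cytoplasm by nutrient signalling through mTORC1. The A form of MITF shares the N-terminal stretch through which the Rag GTPases bring these factors to the lysosome, and the M form lacks it. TFEC is the least widely expressed member and is best known from macrophages. In melanocytes the M promoter is controlled by SOX10, PAX3, LEF1 and, through a cAMP response element, by CREB and its relative ATF1, whose DNA-binding part is retained in EWSR1::ATF1.

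The bases just upstream of a RefSeq start of each member, and of both MITF starts with a peak, are printed because they differ in composition and in the sites they hold. They were read from RefSeq promoters on GRCh38.p14, 5′ to 3′ on the strand of the gene, and stop short of any annotated exon of the gene. Capitals mark matches to the motifs TGACGTCA (ATF/CREB), CTTTGAT (TCF/LEF-type), TGAGTCA (AP1), TCATGTG (the M-box core), CACGTG (the E-box) and the SOX-type letters AACAAAG or, in a second form, AACAATG, searched on both strands. The M start of MITF was preceded by chr3:69936342-69936586 (plus strand), the A start by chr3:69739214-69739455 (plus strand), TFEB by chr6:41735061-41735310 (minus strand), TFE3 by chrX:49043411-49043607 (minus strand) and TFEC by chr7:116030814-116031013 (minus strand).
MITF M start: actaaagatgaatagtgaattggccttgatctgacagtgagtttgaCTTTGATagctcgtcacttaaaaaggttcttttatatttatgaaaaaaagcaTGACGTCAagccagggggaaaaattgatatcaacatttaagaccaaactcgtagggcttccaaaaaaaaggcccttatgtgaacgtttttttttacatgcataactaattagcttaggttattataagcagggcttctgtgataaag
MITF A start: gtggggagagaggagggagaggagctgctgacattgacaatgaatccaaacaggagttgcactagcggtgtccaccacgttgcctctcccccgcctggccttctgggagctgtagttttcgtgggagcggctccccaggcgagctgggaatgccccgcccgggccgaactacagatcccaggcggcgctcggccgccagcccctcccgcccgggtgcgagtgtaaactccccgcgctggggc
TFEB: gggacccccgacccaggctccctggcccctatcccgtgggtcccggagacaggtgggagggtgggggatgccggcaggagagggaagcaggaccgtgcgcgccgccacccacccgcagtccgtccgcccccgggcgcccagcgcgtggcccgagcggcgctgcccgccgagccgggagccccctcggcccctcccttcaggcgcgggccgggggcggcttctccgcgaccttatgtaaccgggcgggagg
TFE3: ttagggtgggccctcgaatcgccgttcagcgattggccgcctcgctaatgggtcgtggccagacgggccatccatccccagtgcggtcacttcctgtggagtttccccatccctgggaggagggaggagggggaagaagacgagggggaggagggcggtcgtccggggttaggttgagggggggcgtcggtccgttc
TFEC: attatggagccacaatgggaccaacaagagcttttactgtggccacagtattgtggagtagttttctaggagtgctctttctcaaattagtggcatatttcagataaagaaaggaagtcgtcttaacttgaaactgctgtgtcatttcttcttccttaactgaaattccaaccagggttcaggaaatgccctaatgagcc

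Over the full 250 bases upstream of the start, the M promoter had a GC content of 34.8%, and 5.27% of 35116 RefSeq promoters had a lower one. The MITF promoter at the A start was GC-rich at 68%, and the remaining RefSeq promoter of MITF, before base 69763811 and outside any peak, had 46.8%. Of the 3 RefSeq promoters of TFEB, the printed one had 78.4% and the others 75.6% and 59.6%, and TFE3 had 68.4%. Of the 2 of TFEC, neither of them in a peak, the printed one had 41.2% and the other 35.2%, close to the M promoter. The median over all promoters was 58%. The M promoter was thus the AT-rich one among the promoters of this family that lay in a peak. An ATF/CREB site stood 152 bases upstream of the M start and a TCF/LEF-type match 204 bases upstream. Of all RefSeq promoters, 1.65% held TGACGTCA and 2.26% held CTTTGAT in the same 250 bases. No match to any of the 7 motifs was found in the other MITF promoters or in those of TFEB and TFEC, which says only that these letters are not in these windows. At TFE3 an AP1 match lay 42 bases upstream of the RefSeq start, at chrX:49043393-49043399, inside its peak. It fell within the first exon of another TFE3 transcript and is printed with its neighbouring bases, plus strand of the chromosome.
TFE3 AP1 match: gggatgggctgTGAGTCAtcccccgccca
TGAGTCA was present in 4.2% of RefSeq promoters.

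A start-site peak, that is a peak with any base within 3 kb of an annotated transcript start, was present at 3 of the 4 members, MITF, TFEB and TFE3. Over all 20015 protein-coding genes the share was 63.4%, so that 3 of 4 genes does not stand apart from the background. TFEC had none. The members differed in the kind of peak around them. Of the 26 peaks, 4 lay at a start of a member, 10 at a start of another gene and 12 beyond 3 kb of every annotated start. These distal peaks were found at MITF (10) and TFEB (2) and not at TFEC or TFE3, and over the whole list 38.7% of peaks were distal.

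**Figure D1:**
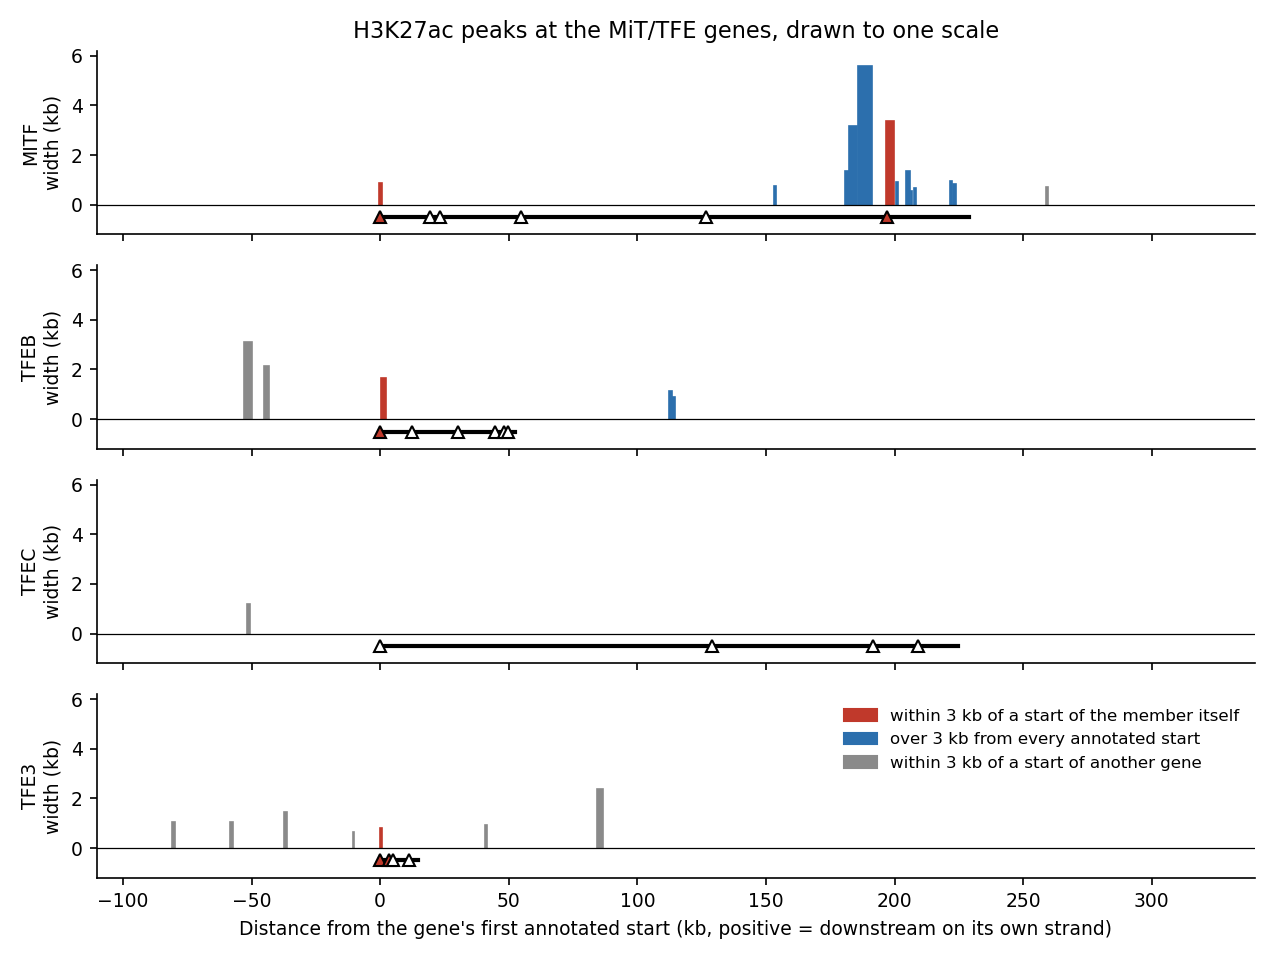
H3K27ac peaks at MITF, TFEB, TFEC and TFE3 (4 panels), with the distance from the first annotated start of each gene in kb along its own strand on the x axis and peak width in kb on the y axis, the bar covering the peak. Red bars are peaks within 3 kb of a start of the member, blue bars are over 3 kb from every start, grey bars are at starts of other genes, the black line is the gene, and triangles are start groups, filled where a peak was within 3 kb. MITF has 12 peaks in its body, TFEB and TFE3 have 1 each, and TFEC has none.

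MITF runs on the plus strand at chr3:69739456-69968336, over 229 kb. GENCODE annotates 20 transcripts for it, whose starts form 6 groups when starts up to 1 kb apart are joined. A peak was present at 2 of the 6 groups, and these groups hold 12 of the 20 transcripts. The first was the A group, which holds the MANE Select transcript with its start at base 69739464, 10 exons and a protein of 526 residues. The second was the M group, which holds the MANE Plus Clinical transcript with its start at base 69936592, 9 exons and a protein of 419 residues. The A and M starts are 197 kb apart.

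The peaks at the A and M starts differed in width. The A peak, chr3:69739191-69740070, measured 880 bases, and 14.8% of genes with a start-site peak had a narrower widest one. That reference takes the widest start-site peak of each gene, which the A peak is not for MITF. Of all peaks in the list, 41.2% were narrower than the A peak and 94.2% narrower than the M peak. The M peak, chr3:69935961-69939350, measured 3390 bases, and 90.5% of genes with a start-site peak had a narrower widest one. It reached 631 bases upstream of the M start and 2759 bases downstream of it, so that most of its length lay on the transcribed side. The GC content was 68.8% in the A peak and 37.9% in the M peak. The M peak was 3.85 times as wide as the A peak. Of 1710 protein-coding genes with peaks at starts at least 10 kb apart, 43% had a wider peak at an inner start than at the most upstream one with a peak, the median ratio was 0.889, and 94.5% had a smaller ratio than MITF. Width does not measure how much acetylation there was at its highest point, and broad calls join neighbouring stretches.

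The remaining MITF start groups lay away from any peak. A single start at base 69758704 was 18.6 kb from the nearest peak, the group at 69762724 to 69763811 was 22.7 kb away, a single start at 69794408 was 54.3 kb away, and the group at 69866224 to 69866267 was 26.4 kb away. All of them lie in a stretch of 153 kb without a peak, between the A peak and the first intronic peak. Of 30760 stretches between neighbouring peaks in the list, 87% were shorter, and the median was 17.9 kb.

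MITF had more peaks in its body than most genes. Its 12 body peaks covered 20.2 kb, or 8.82% of the gene. The median protein-coding gene had 1 peak and 727 bases, and 99.2% of genes had fewer peaks and 99.3% fewer peak bases than MITF. As a share of gene length MITF exceeded 80.8% of genes. A short gene can be filled by 1 peak, as ATF4 was at 2.99 kb, and what this percentile owes to gene length was not tested. Among 1501 genes over 200 kb long, the median was 2 peaks and 1443 bases, 94.1% had fewer peaks than MITF and 96.1% had fewer peak bases. With peaks at start sites left out, 10 peaks and 16180 bases remained, and 99.7% of all genes had fewer distal peak bases. That reference holds genes of every length, with a median of 0 distal peaks. Distal peak bases were not compared among genes over 200 kb.

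**Figure D2:**
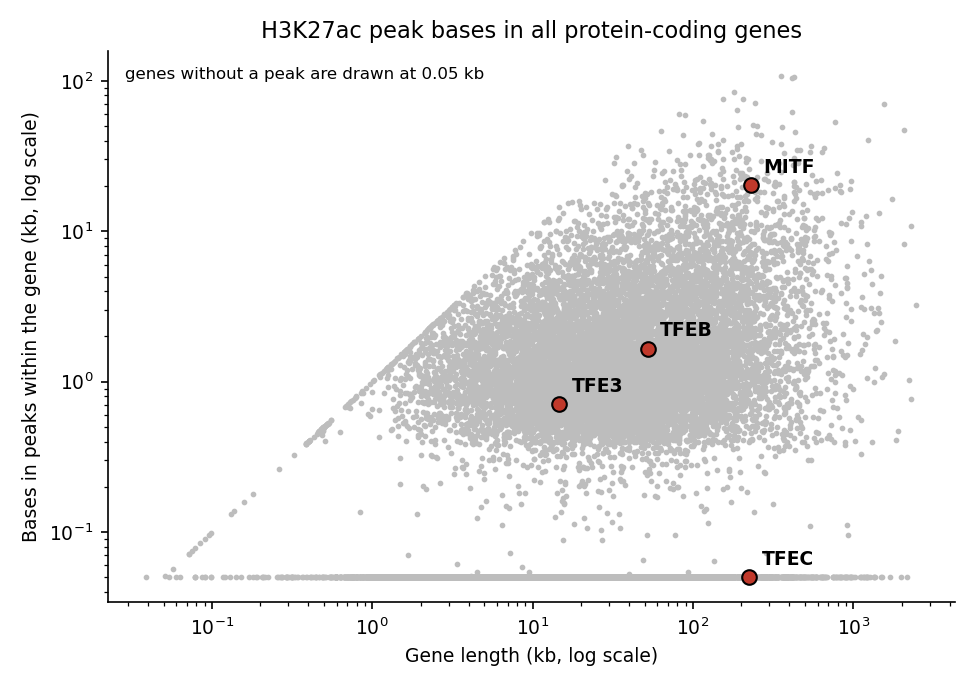
Gene length in kb (x axis, log scale) against bases of the gene inside H3K27ac peaks in kb (y axis, log scale) for 20015 protein-coding genes (grey points), with the 4 family members in red and genes without a peak drawn along the bottom. MITF (229 kb, 20.2 kb in peaks) lies near the upper edge of genes of its length, and TFEC (225 kb) lies on the line of genes without a peak.

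The MITF peaks gathered around the M start. The 8 peaks within 20 kb of it held 17.0 kb, which was 84.3% of the peak bases in the gene, with 10.8 kb upstream of the start and 6.26 kb downstream. This distance was chosen after the peaks had been seen. The widest peak of the locus was not the M peak but one of 5580 bases at chr3:69925151-69930730, whose nearer edge lay 5.86 kb upstream of the M start. Of all peaks, 98.4% were narrower, and of the 11928 distal peaks, with a median of 770 bases, 99.1% were narrower.

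Upstream of it stood a peak of 3180 bases at chr3:69921711-69924890, 11.7 kb from the M start, and one of 1370 bases at chr3:69920191-69921560, 15 kb from it. A lone peak of 770 bases at chr3:69892701-69893470 lay 43.1 kb upstream of the M start. All these upstream peaks fall in intron 2 of the A transcript and outside the M transcript. The 3 nearest ones were each wider than the median distal peak, and the lone one equalled it.

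Downstream, the peaks were narrower and lay in introns shared by the A and M transcripts. A peak of 900 bases at chr3:69940051-69940950 lay 3.46 kb from the M start, in intron 3 of the M transcript. Intron 4 held peaks of 1360 bases (chr3:69944061-69945420), 570 bases (chr3:69945711-69946280) and 670 bases (chr3:69947141-69947810), at 7.47, 9.12 and 10.5 kb from the start. The last intron, intron 8 of the M transcript, held peaks of 950 bases (chr3:69960911-69961860) and 830 bases (chr3:69962301-69963130), at 24.3 and 25.7 kb. The 6 downstream body peaks thus ranged from 570 to 1360 bases, and the 3 upstream peaks nearest to the M start from 1370 to 5580 bases.

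Peaks were also stitched at the distance used for super-enhancer calling in the study. The 8 peaks around the M start then formed 1 region, chr3:69920191-69947810, of 27.6 kb. The longest gap bridged in it was 5.23 kb, and the next peaks lay 26.7 kb upstream and 13.1 kb downstream. It had the M start inside it, and 61.6% of its span was covered by peaks. Ranked by summed peak width, with 17020 bases, it stood at rank 210 of 17049 regions, in the top 1.23%. The study ranked regions by reads, which the list does not hold, so that this rank is one of width and makes no super-enhancer call. From chromatin contact data of SU-CCS-1, the study listed MITF among genes with promoters looped to super-enhancers. Which MITF start and which super-enhancer were meant is not stated there. The region around the M start held rank 117 of 8165 when peaks contained in a window of 2.5 kb around a start were left out. The A peak stayed alone, at rank 12958, and the 2 peaks in the last intron formed a region at rank 7304. The region of the TFEB peak stood at rank 7949, and the TFE3 peak, joined to the peak of its neighbour CCDC120, at rank 9258.

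**Figure D3:**
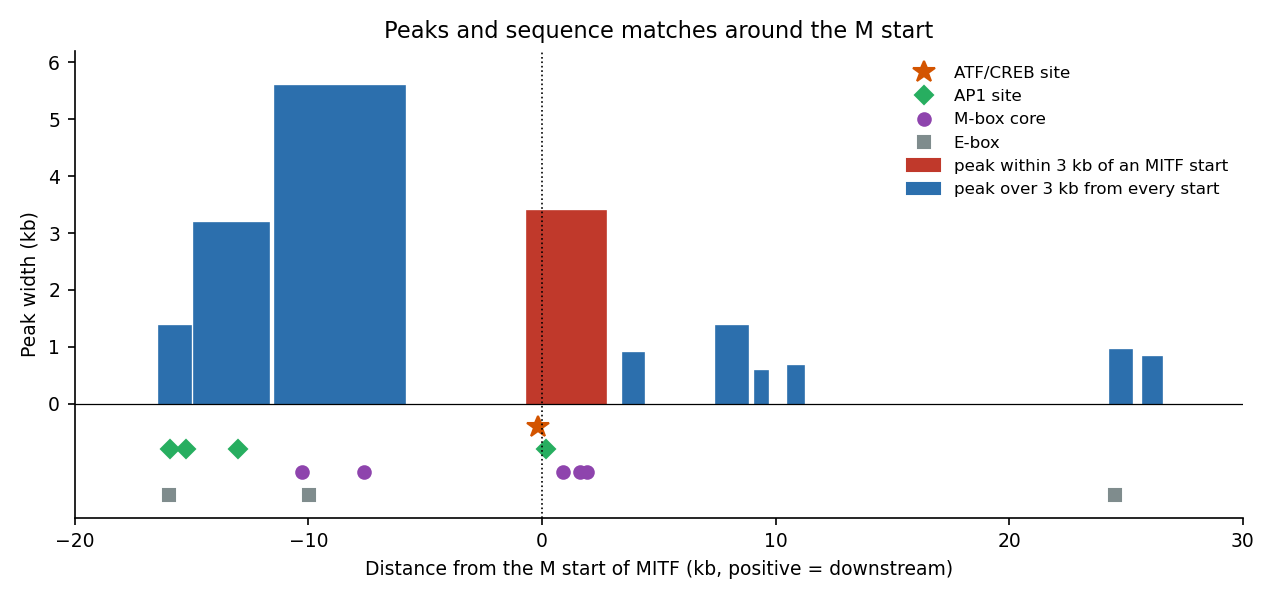
Peaks from 20 kb upstream to 30 kb downstream of the M start of MITF (dotted line), with distance from the M start in kb on the x axis and peak width in kb on the y axis, the bar covering the peak. Symbols below the axis mark matches inside these peaks to the ATF/CREB (star), AP1 (diamond), M-box core (circle) and E-box (square) letters, and the only star lies beside the M start, 0.152 kb upstream.

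Within the 13 peaks of the MITF window the ATF/CREB letters TGACGTCA occurred once, at chr3:69936440-69936447 in the M promoter printed above. That is 0.0472 per kb beside 0.0191 per kb over all peaks, of which 2.58% held a match. A single match gives no rate that can be compared. The AP1 letters occurred 4 times. The peak 15 kb upstream of the M start held 2 of these matches, its neighbour of 3180 bases held 1, and 1 lay in the M peak, 177 bases downstream of the start. The density of 0.189 per kb was between the 0.150 per kb of all peaks and the 0.205 per kb of the 5795 peaks with a GC content of at most 45%. These AT-rich peaks are the nearer reference, since the MITF peaks other than the A peak had a GC content of 37.9% to 48.5% and the median peak 53.6%.

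The family's own sites, E-boxes and M-box cores, were also present in the MITF peaks. The letters TCATGTG occurred 5 times in the MITF peaks, 3 of them in the M peak and 2 in the peak of 5580 bases, with 0.236 per kb beside 0.109 in all peaks and 0.186 in AT-rich peaks. CACGTG occurred 3 times, each in a different peak, with 0.142 per kb beside 0.192 in all peaks and 0.101 in AT-rich peaks. Of all peaks in the list, 12.8% held TCATGTG and 20.4% held CACGTG. With only 5 and 3 matches, these rates are too imprecise to be compared. The M-box cores and the upstream E-box of the widest peak are printed on the plus strand with their neighbouring bases, so that a match on the minus strand reads CACATGA. The sites start at chr3:69926337, 69926616, 69928986, 69937495, 69938241 and 69938541.
69926337, M-box core: cagtttttagcTCATGTGggcttgacctt
69926616, E-box: ctaaactggggCACGTGgaaaagttcta
69928986, M-box core: aggaagctttaTCATGTGaagtagggtgg
69937495, M-box core: aataaacccttTCATGTGtgttggggaaa
69938241, M-box core: tgggtgtagagCACATGAcgggagacctg
69938541, M-box core: gaatcatatagCACATGAgactttaacgg

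The SOX-type letters AACAAAG occurred 12 times in the MITF peaks, 5 of them in the peak of 5580 bases and 3 in the M peak, with 0.567 per kb beside 0.197 in all peaks and 0.326 in AT-rich peaks. AACAATG occurred 6 times, with 3 matches each in those same peaks, and with 0.283 per kb beside 0.108 in all peaks and 0.219 in AT-rich peaks. The TCF/LEF-type letters CTTTGAT occurred 3 times, 1 of them in the M promoter, with 0.142 per kb beside 0.0914 in all peaks and 0.180 in AT-rich peaks. The SOX-type and TCF/LEF-type letters were looked for after the locus had been seen, and a match is a description of the sequence, not of binding. Of the 6 gaps of up to 1 kb between neighbouring MITF peaks, none held an ATF/CREB, AP1, M-box core or E-box match. The gap between the peaks of the last intron held 1 AACAAAG match. The gaps total 2.7 kb, which is too little sequence to read the absence of a match as a depletion.

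The last peak of the MITF window, chr3:69998421-69999150, lay outside the gene, 61.8 kb downstream of the M start. It measured 730 bases and ended 399 bases before the annotated start of SAMMSON, a long non-coding RNA gene known from melanoma and from the same chromosomal neighbourhood as MITF. No other protein-coding gene has a start in the MITF window, and no peak lay in the 100 kb upstream of the A start.

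TFEB runs on the minus strand at chr6:41683978-41736259, over 52.3 kb, with 19 transcripts in 6 start groups. The group at its upstream end holds 12 transcripts and had 1 peak, chr6:41734101-41735760, of 1660 bases and 74.6% GC. Of genes with a start-site peak, 52.7% had a narrower widest one, which places TFEB near the middle. The other 5 groups, inside the gene, had no peak within 3 kb, and their nearest peak was this one, 10.4 to 47.6 kb away. No further peak lay in the body. Beyond the downstream end of the gene, 2 distal peaks of 890 and 1130 bases were found, the nearer one 60 kb away, with MDFI as the nearest protein-coding start.

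TFE3, on the minus strand at chrX:49028726-49043410, spans 14.7 kb. Its peak, chrX:49042701-49043500, measured 800 bases with 65.5% GC, and 11.8% of genes with a start-site peak had a narrower widest one, close to the A peak of MITF. It lay at the start group of the MANE Select transcript and was within 3 kb of a second group, 2.9 kb away, so that 2 of 4 groups counted as having a peak from this 1 peak. The gene lies among close neighbours, and the other 6 peaks of its window were at starts of other genes.

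TFEC, on the minus strand at chr7:115935148-116159896, is nearly as long as MITF at 225 kb, with 9 transcripts in 4 start groups. No peak lay in its body. The nearest peak was 50.4 kb from the first start group and 180, 242 and 259 kb from the others. That peak, chr7:116210321-116211500, of 1180 bases, was at the start of TES, which encodes testin. The stretch without a peak around TFEC measured 1290 kb, and 99% of such stretches in the list were shorter. Of genes over 200 kb long, 24.2% likewise had no peak in their body.

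The labelled cell type was checked against start-site peaks of marker genes. All 5 melanocytic markers had a peak (SOX10, MITF, PMEL, MLANA and S100B), and of 9 markers of blood, epithelium, skeletal muscle and endothelium only KRT8, a keratin, had one, of 640 bases. Over all protein-coding genes the share was 63.4%. The S100B peak, of 1010 bases, lay within 3 kb of a start but outside the gene, which had no peak in its body. PTPRC, CD3E, EPCAM, KRT5, MYOD1, MYOG, PECAM1 and CDH5 had none. The melanocytic markers were chosen with earlier results known and include MITF itself, and other genes of the lineage, such as TYR and TYRP1, had no start-site peak, as given below for the pigment targets.

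Genes that act on, with or downstream of the family were then read in 5 lists. In all, 69 of 77 genes had a start-site peak, which is 89.6%, beside 63.4% of all protein-coding genes. No other gene lists were set beside these, so the share is not shown to be particular to this family. MCOLN1, a lysosomal calcium channel, is in 2 lists.

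Among 12 regulators of MITF transcription, 10 had a start-site peak, with a median widest peak of 3060 bases beside 1600 bases over all genes with one. SOX10, the neural crest factor that activates the M promoter, had the widest, 18040 bases. TFAP2A, a partner of MITF in melanocytes, had 6790 bases, ZEB2, a zinc finger factor of the melanocyte lineage, 4330 bases, CREB1, the cAMP-responsive factor, 4320 bases, and POU3F2, which represses or activates MITF by context, 3400 bases. EDNRB, the endothelin receptor upstream of MITF, had 2720 bases. The widest peaks of PAX3 and LEF1, which act at the M promoter, were narrow at 530 and 520 bases. ONECUT2 had 1290 bases and MC1R, the melanocortin receptor that raises cAMP, 1020 bases. SOX9 and the receptor gene KIT had no start-site peak.

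Among 14 pigment targets of MITF, 9 had a start-site peak, or 64.3%, close to the background. OCA2, a transporter of the melanosome membrane, had 10050 bases, IRF4, a factor that acts with MITF on TYR, 10120 bases, PMEL, the melanosome fibril protein, 5530 bases, DCT, a melanin enzyme, 3890 bases, RAB27A, which moves melanosomes, 2340 bases, and MLANA 1640 bases. GPR143 and GPNMB had 980 bases each and MREG 670 bases. The melanin enzymes TYR and TYRP1, the transporters SLC45A2 and SLC24A5 and the channel gene TRPM1 had none. Pigment genes were therefore split, with a median widest peak of 2340 bases among the 9.

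Other MITF targets had a start-site peak in 12 of 13 cases, with a median of 2665 bases. The widest were at PPARGC1A, the coactivator of mitochondrial genes, with 6600 bases, CDK2, a cell cycle kinase, with 5530 bases, and BIRC7, an apoptosis inhibitor, with 4640 bases. CDK2 and PMEL are neighbours and were assigned the same peak, so that its width cannot be credited to either. BCL2, the apoptosis inhibitor, had 3380 bases, SCD, a fatty acid desaturase, 3280 bases, and the receptor gene MET 1650 bases. BCL2A1 had none.

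The nutrient-sensing genes that control TFEB and TFE3 all had a start-site peak, 17 of 17, with a median of 1620 bases. They included MTOR and RPTOR, core parts of mTORC1, with 690 and 470 bases, the Rag GTPase genes RRAGC and RRAGD with 1830 and 2230 bases, and FLCN, which with FNIP1 and FNIP2 acts on RRAGC and RRAGD, with 1620 bases. The widest in this list was at XPO1, the nuclear exporter, with 3190 bases. All 22 lysosome and autophagy targets of TFEB had one too, with a median of 1865 bases. CTSD, a lysosomal protease, had 9200 bases, SQSTM1, an autophagy receptor, 4240 bases, NAGLU 3480 bases and LAMP1, a lysosomal membrane protein, 2240 bases.

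**Figure D4:**
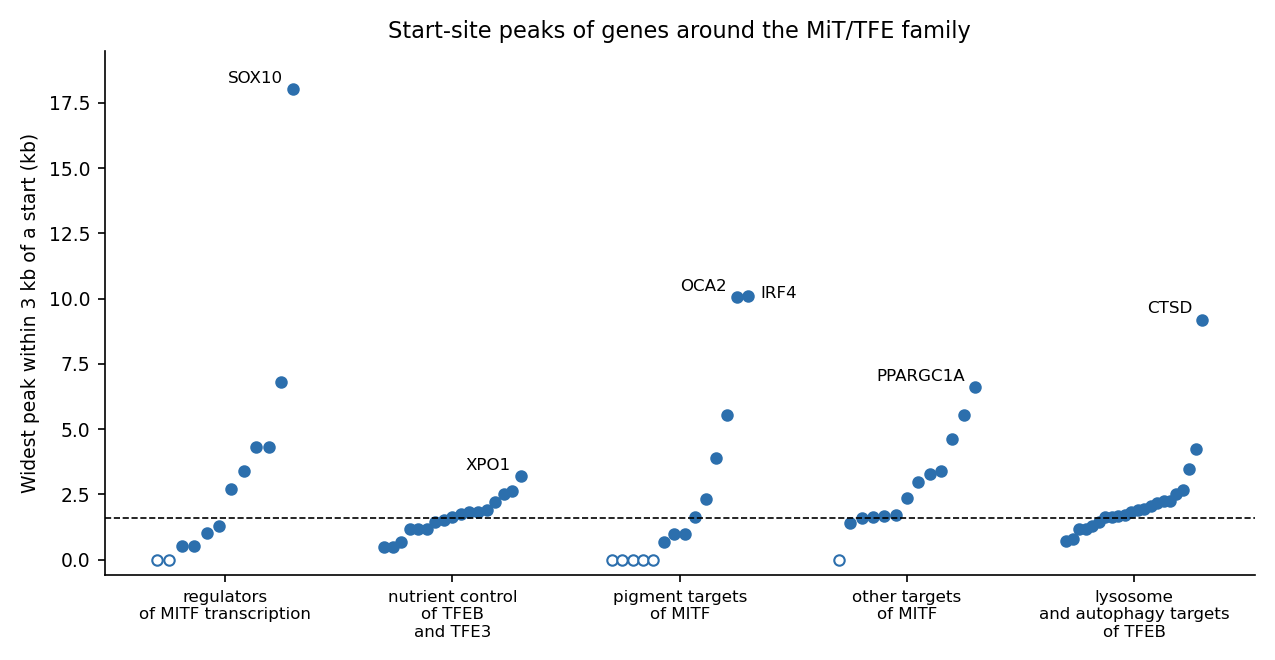
Width in kb (y axis) of the widest H3K27ac peak within 3 kb of any start of each gene (points, sorted within a list) for 5 gene lists (x axis), with open points at 0 for genes without a peak and the dashed line at the median of all genes with one, 1600 bases. SOX10 stands highest at 18040 bases, and open points are found among pigment targets (5), MITF regulators (2) and other targets (1).

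The shares fell when only wide peaks counted. With the widest 25% of all peaks, 50% of MITF regulators, 53.8% of other targets, 54.5% of lysosome targets, 41.2% of nutrient-control genes and 35.7% of pigment targets had a start-site peak, beside 26.7% of all protein-coding genes. MITF itself met this with the M peak, and TFEB and TFE3 did not.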

How the data were processed

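Deposited peak positions were the only measurement. The submitters' processing notes name BWA 0.7.10-r789, MACS2 2.2.6 and hg38; the authors removed duplicate reads, called broad peaks against input and dropped denylisted regions. Each deposited line gives a chromosome, start and end, and the list has no score, fold or count, so depth and precision per peak are unknown, and whether peaks were merged from the 3 H3K27ac samples or called on joined reads is not given in the sources used here. Coordinates were counted from 1.

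Peaks were joined to GENCODE version 44 with Python 3.11.15 and pysam 0.24.0, after a check of the code on simulated peaks. Windows, the 3 kb start-site distance, start groups (1 kb) and stitching, at the study's distance, are as given above. Mitochondrial genes and Y copies of genes shared with X were left out of gene counts. Named genes were the members, genes with starts in their windows and the 5 pathway lists and marker lists, all chosen with earlier results of these data known. SAMMSON, the SOX-type and TCF/LEF-type letters, the AT-rich reference and the comparison of inner with outer starts were added after the data were seen. Alternatives changed window, peak width, transcripts, stitching and motif. No test was run. A further marker gene is not reported here.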

Additional observations from a re-analysis of the deposited data

How the results depend on the processing

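The 7 counts or sums above were recomputed under 34 alternatives, and 26 of them stayed within 1.5 times the reported value. Some of the alternatives that stayed could not lower the value. Ranking by span leaves the summed width of the stitched region as it is, and the ATF/CREB settings could not lose the site. The 26 family peaks became 14 in gene bodies alone, 49 with a flank of 200 kb, and 12 with the widest 50% of peaks. The 3 members with a start-site peak became 2 with the widest 50% of peaks, where TFE3 was lost, a change at the limit of 1.5 times that counted as within it. They became 1 with the widest 25% of peaks, where MITF was left. The 2 MITF start groups with a peak became 1 with the widest 50% and with the widest 25%, since the A peak was then dropped and the M peak kept. The stitched MITF region of 17020 bases became 10130 bases when peaks were joined within 5 kb, which held 3 peaks, left out the M start and stood at rank 386 of 20426. At 20 kb it ranked 231 of 14814, and ranked by span 512. The 69 pathway genes became 37 with the widest 25% of peaks. The single ATF/CREB site was found with wider gaps, a looser motif and the gene body alone, but none of these settings could lose it. Wider gaps and a looser motif only add to the search, and the site lies in a peak inside the gene body. No paired analysis was possible because the list holds no value per replicate, and for the same reason no replicate could be left out. Read depth is unknown, so it cannot be said which missing peaks deeper sequencing would add.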

Other observations

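Peaks at starts of neighbouring genes made up 2 of the 5 peaks in the TFEB window and 6 of the 7 in the TFE3 window. Of the 8 other protein-coding genes with a start in the TFEB window, 6 had a start-site peak, beside 63.4% of all protein-coding genes. A peak of 3120 bases was shared by FRS3, an adaptor of growth factor receptors, PRICKLE4 and TOMM6, a part of the mitochondrial import machinery. MDFI and PGC had none. The peaks assigned to FOXP4 (2560 bases) and USP49 (1050 bases) lay at other starts of these genes, outside the window. Of the 8 in the TFE3 window, 6 had a start-site peak, and neither count stands apart from the share over all protein-coding genes. OTUD5, a deubiquitinase, had the widest with 2370 bases, followed by WDR45, an autophagy protein, with 1460 bases, GPKOW with 1060, GRIPAP1 with 930 and CCDC120 with 640 bases. The remaining one was a gene without a symbol that shares its peak with WDR45, and KCND1 and PRAF2 had none.

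The AT-rich M promoter was of a kind that seldom lay in a peak. Of 1992 RefSeq promoters with a GC content of at most 34.8%, 35 overlapped a peak by at least 1 base, or 1.76%, and the M promoter, with all 250 bases inside one, was among them, beside 41.4% of all promoters. Of the 578 promoters with TGACGTCA, 71.3% overlapped a peak, beside 40.9% of those without it. The GC content of these groups was not matched, and what the share owes to it was not tested.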
